A study of Sus scrofa with 13 samples.

Results

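The axon guidance ligands and receptors are 66 genes of 27339 in the count tables, taken by gene symbol. They comprise 20 semaphorins, 9 plexins, 8 ephrins, 14 Eph receptors, 3 slits, 4 robos, 4 netrins and 4 UNC5 receptors, so that 35 encode ligands and 31 encode receptors. Their 5-hydroxymethylcytosine (5hmC) signal was described here in adipose-derived mesenchymal stem cells from domestic female pigs. In each of the 6 hypoxia libraries the cells had been held at 1% oxygen for 48 hours in culture, and in each of the 6 normoxia libraries at 20% oxygen. The animals of both groups were fed a high-cholesterol diet and carried a coil-induced stenosis of the renal artery, so neither group stands for cells of healthy pigs. The cells were expanded in medium with platelet lysate and taken from culture at early passage. Within each group the library titles carried the numbers 110, 16, 21, 33, 49 and 4, which do not say whether they stand for animals.

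Axon guidance molecules were found as signals that steer growing nerve fibres, and the same molecules act in blood vessel growth, cell migration and tissue boundaries. Semaphorins bind plexins, in several cases together with a neuropilin co-receptor. Ephrins are held at the cell surface and bind Eph receptor tyrosine kinases on the neighbouring cell, with signals running into both cells. Slits bind robo receptors, and netrins bind DCC, neogenin and the UNC5 receptors. 5hmC is made when TET enzymes oxidise 5-methylcytosine, a reaction that uses oxygen, and it is often found within genes and at enhancers. A read at a gene here is a DNA fragment captured by an antibody to 5hmC; it measures neither the gene's RNA nor its protein.

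The libraries held 263578 to 714002 reads in genes, which was 1.69 to 2.89% of all reads in a table. Of these gene reads, 1494 to 2676 per library fell on the 66 genes in hypoxia and 862 to 3404 in normoxia. That was 0.402 ± 0.0326% of gene reads in hypoxia and 0.384 ± 0.0583% in normoxia (mean ± SD, n = 6 each). Reads were found at 64 to 66 of the genes per hypoxia library and at 59 to 66 per normoxia library. Totals per gene ran from 11 to 1630 reads over the 12 libraries, with a median of 249, and 59 genes had a read in all 12. The shallowest library was normoxia 21 and the deepest normoxia 4, and these 2 held the extreme values of normoxia at many of the genes, as described below. Values are given as CPM, a gene's reads relative to its library's TMM-scaled size, and fold changes as log2 of hypoxia over normoxia. Because reads accumulate with the counted length of a gene, no level is compared between genes.

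No axon guidance gene differed between hypoxia and normoxia in its share of library reads, beyond the spread between these libraries, after adjustment. Every scaling used was relative to reads of the same library, so a rise or fall of 5hmC shared by most genes would not show. A filter on low counts left 50 of the 66 for testing, and 0 of the 50 had an adjusted p under 0.05 in edgeR's quasi-likelihood test, with the adjustment made over all 11868 genes tested, of which 0% passed. With the title number as a block, again 0 of the 50 passed, against 0.0337% of all genes. DESeq2, run on all 66, also gave 0. At an unadjusted p under 0.05 there was 1 of the 50 without the block (2.73% of all genes), namely ROBO4, which was lower (1.81% of all genes), and 0 were higher (0.918%). With the block there were 3 (7.09% of all genes): ROBO4 and NTN1 were lower (4.49% of all genes) and PLXNB1 higher (2.6%). DESeq2 gave ROBO4 alone at that level.

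The direction of the differences was mixed. Of the 50 genes, 23 had a higher and 27 a lower fitted count in hypoxia, and 56.6% of all genes tested had a lower one. With the block 25 were higher and 25 lower, beside 53.4% of all genes lower. The split depended on the scaling, since 29 were higher and 21 lower when the gene-read total alone scaled the libraries. The median log2 fold change was -0.016, beside -0.043 over all genes tested. Ligands split into 11 higher and 14 lower, and receptors into 12 higher and 13 lower. Single genes ranged from -0.82 for ROBO4 to 0.49 for PLXNB1, with standard errors (SE) of 0.204 to 0.485. Fold changes and SE here and below are from the fit without the block unless the block is named. For 44 of the 50 the 95% interval lay within a 2-fold change either way, as it did for 77.7% of all genes. With the block it did for 46 of the 50, PLXNA4 having no interval there, and for 88.2% of all genes. Between the title numbers the set differed in direction. The median log2 ratio of hypoxia over normoxia CPM, with 1 CPM added to each, was 0.32 at number 33, 0.15 at number 21, -0.026 at 16, -0.032 at 49, -0.087 at 110 and -0.28 at number 4.

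**Figure D1:**
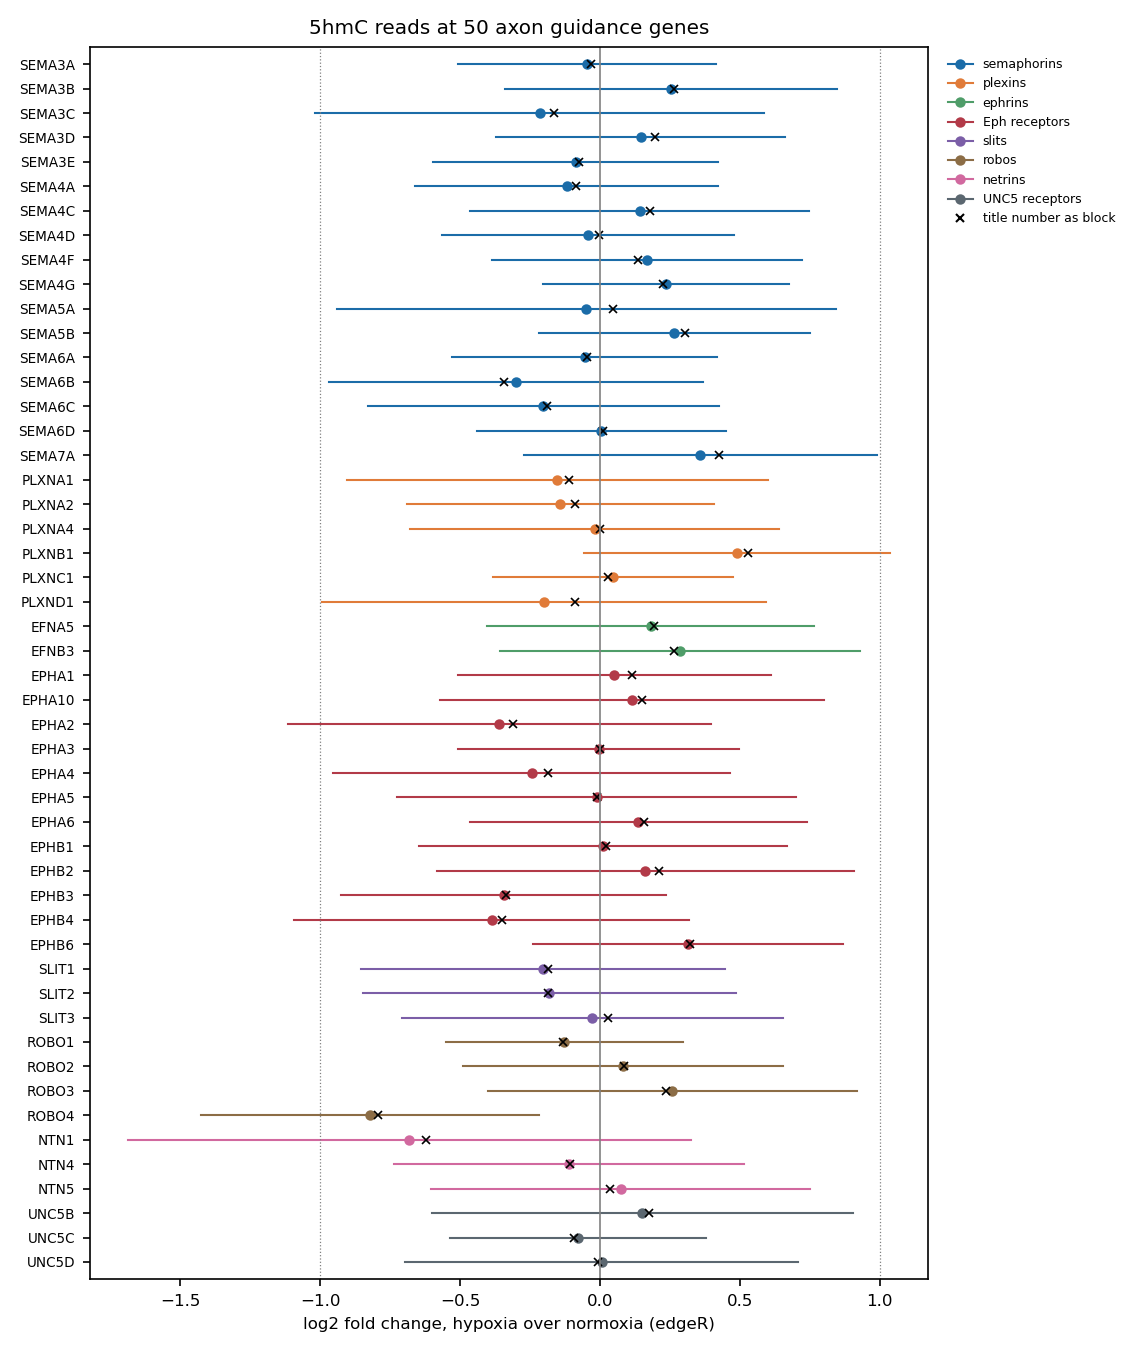
Log2 fold change of hypoxia over normoxia (x axis) for the 50 axon guidance genes tested (y axis, grouped and coloured by family), from edgeR without a block; points are estimates, bars 95% intervals, crosses the estimate with the title number as a block, and dotted lines mark a 2-fold change. All intervals except that of ROBO4, at -0.82, cross 0, and no gene passed the adjusted test.

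Semaphorins are secreted or membrane-bound ligands, and 17 of the 20 were tested. Without the block 8 were higher and 9 lower in hypoxia, with a median log2 fold change of -0.042; with the block 9 were higher and 8 lower. By class, the secreted class 3 genes split into 2 higher and 3 lower, the membrane-bound class 4 genes into 3 higher and 2 lower, and the class 6 genes, which also span the membrane, into 1 higher and 3 lower. SEMA5B, a membrane-spanning semaphorin with thrombospondin repeats, had 174 CPM at its lowest, 204 at the median and 247 at its highest in hypoxia, against 102, 174 and 275 in normoxia. The hypoxia values lay inside the normoxia range, and the log2 fold change was 0.27 ± 0.233 (SE). SEMA4G had 132, 160 and 219 CPM in hypoxia as lowest, median and highest, against 99.1, 145 and 178 in normoxia. Its log2 fold change was 0.24 ± 0.212. SEMA7A, a GPI-anchored semaphorin that binds PLXNC1 and integrins, had 25.4, 30.3 and 36.3 CPM in hypoxia against 14.5, 18.9 and 46.1 in normoxia. It was higher in hypoxia in 5 of 6 numbers, with a log2 fold change of 0.36 ± 0.304 on 3 to 23 reads per library. At number 49 the order was the other way, with 30.4 CPM in hypoxia and 46.1 CPM in normoxia. The share of all genes going the same way in 5 of 6 numbers was not computed, for this or the genes below. SEMA6A, the semaphorin with the most reads, averaged 199 ± 44.5 CPM in hypoxia and 208 ± 64.4 CPM in normoxia (SD, n = 6 each), with a log2 fold change of -0.055 ± 0.228 that was 0.0090 with the gene-read total as the scaling and 0.11 without normoxia 21.

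Plexins are the main semaphorin receptors. Of the 9 genes 6 were tested, with 2 higher and 4 lower in hypoxia and a median of -0.081; with the block the split was 3 and 3. PLXNB1, the receptor for SEMA4D, was the only one of the 66 genes that was higher in hypoxia in 6 of 6 numbers, which 1.68% of all genes were. It had 96.6 CPM at its lowest, 144 at the median and 160.1 at its highest in hypoxia, against 43.5, 103 and 144 in normoxia. The normoxia values of numbers 21 and 33, at 43.5 and 52.3 CPM, lay far below the others, while at number 49 the groups were close, at 146 CPM in hypoxia and 144 CPM in normoxia. The log2 fold change was 0.49 ± 0.264 (95% interval -0.058 to 1.04, edgeR adjusted p = 1.00). With the block it was 0.53 ± 0.222 (edgeR adjusted p = 0.646). Without the normoxia library of number 21 it was 0.37 without a block, and it was 0.78 among the libraries of sequencing lane 7 (numbers 110, 16, 21 and 33) and 0.13 among those of lane 8 (numbers 49 and 4).

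PLXNC1, the receptor of SEMA7A and the most-read plexin, averaged 322 ± 78.1 CPM in hypoxia and 312 ± 56.7 CPM in normoxia, with a log2 fold change of 0.046 ± 0.207. The class A plexins, which carry the signal of class 3 and class 6 semaphorins, had log2 fold changes of -0.15 ± 0.364 for PLXNA1, -0.14 ± 0.264 for PLXNA2 and -0.020 ± 0.319 for PLXNA4. PLXND1, a receptor known from vessel patterning, ranged from 23.6 to 69.6 CPM in hypoxia and from 9.66 to 116 CPM in normoxia, with a log2 fold change of -0.20 ± 0.383. The summed CPM of the plexins was 622 to 827 in the hypoxia libraries, 401 in normoxia 21 and 614 to 852 in the other normoxia libraries.

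Of the 8 ephrins 2 reached the filter and were tested. EFNA5, a GPI-anchored ligand of EphA receptors, had 113, 174 and 278 CPM in hypoxia as lowest, median and highest, against 116, 127 and 285 in normoxia. The ranges were nearly the same, and the log2 fold change was 0.18 ± 0.281. EFNB3, a transmembrane ligand of EphB receptors, averaged 44.6 ± 14.4 CPM in hypoxia and 37.1 ± 14.4 CPM in normoxia. This gave a log2 fold change of 0.29 ± 0.310. EFNB2, the arterial partner of EPHB4, had 2 to 11 reads per library and was among the 6 ephrins not tested; it averaged 10.2 ± 1.91 CPM in hypoxia and 10.6 ± 3.47 CPM in normoxia.

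The Eph receptors, 12 of 14 tested, divided evenly into 6 higher and 6 lower, with a median of 0.0025. EPHB4, the venous receptor for ephrin-B2, had 27.4, 69.2 and 105 CPM in hypoxia as lowest, median and highest, against 29.0, 95.8 and 134 in normoxia. It was lower in hypoxia in 5 of 6 numbers, with number 33 the other way. Its log2 fold change was -0.39 ± 0.340, or -0.35 ± 0.228 with the block. EPHB3 had 23.4, 51.1 and 57.6 CPM in hypoxia against 35.8, 52.4 and 78.2 in normoxia. The fitted log2 fold change was -0.34 ± 0.280, and it too was lower in 5 of 6 numbers. EPHB6, whose kinase domain lacks activity, was higher in hypoxia in 5 of 6 numbers. It had 45.4, 59.8 and 86.5 CPM in hypoxia against 26.1, 51.5 and 70.1 in normoxia. Its log2 fold change was 0.31 ± 0.268. EPHA2, a receptor of ephrin-A1, averaged 56.1 ± 26.6 CPM in hypoxia and 70.4 ± 42.4 CPM in normoxia. Its log2 fold change of -0.36 ± 0.364 was -0.033 without normoxia 4, the library with its highest value. EPHA1, the most-read Eph receptor, averaged 214 ± 41.3 CPM in hypoxia and 204 ± 86.9 CPM in normoxia, with 62.8 CPM in normoxia 21 and 143 to 299 CPM in the other normoxia libraries.

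Slits are large secreted ligands, and all 3 were tested. SLIT1, SLIT2 and SLIT3 had log2 fold changes of -0.20 ± 0.313, -0.18 ± 0.322 and -0.027 ± 0.328. SLIT3, the most-read of them, had 35.7, 58.7 and 105 CPM in hypoxia as lowest, median and highest, against 21.4, 60.6 and 108 in normoxia, and its direction turned with the block, to 0.030 ± 0.258.

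Robos are the family that holds the slit receptors. ROBO4, a member known mainly from endothelial cells and vessel stability, had the lowest log2 fold change of the 50 genes. Its CPM were 15.5 at the lowest, 20.8 at the median and 27.2 at the highest in hypoxia, against 24.1, 34.9 and 60.1 in normoxia. By number, in the order 110, 16, 21, 33, 49 and 4, ROBO4 had 19.8, 15.5, 16.5, 23.4, 21.7 and 27.2 CPM in hypoxia and 26.1, 37.4, 24.1, 35.8, 34.1 and 60.1 CPM in normoxia. It was lower in hypoxia in 6 of 6 numbers, as 2.59% of all genes were and no other of the 66. The groups overlapped through hypoxia 4, which lay above the normoxia values of numbers 110 and 21. None of the 66 genes had groups that did not overlap, beside 0.059% of all genes lower and 0.0421% higher in hypoxia without overlap. The log2 fold change was -0.82 ± 0.292 (95% interval -1.43 to -0.22, edgeR adjusted p = 1.00). With the block it was -0.79 ± 0.292 (edgeR adjusted p = 0.566). These values rest on 5 to 15 reads per library in hypoxia and 5 to 39 in normoxia. Without normoxia 4 the log2 fold change was -0.59 and no longer had an unadjusted p under 0.05.

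The other 3 robos had fitted values nearer 0. ROBO3 lies next to ROBO4 with 0 protein-coding genes between them in the RefSeq annotation of the pig assembly Sscrofa11.1, and its log2 fold change was 0.26 ± 0.318. The 2 neighbours differed in the same direction in 1 of 6 numbers. ROBO1 and ROBO2, also neighbours, had log2 fold changes of -0.13 ± 0.204 and 0.083 ± 0.275 and differed in the same direction in 2 of 6 numbers. The other pairs among the 66 genes with 0 protein-coding genes between them did so in 3 or 4 of 6 numbers. ROBO1, a main slit receptor in many tissues, averaged 121 ± 18.9 CPM in hypoxia and 133 ± 19.0 CPM in normoxia, with the smallest standard error of the 50 genes.

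Netrins are laminin-related secreted ligands, and 3 of the 4 were tested. NTN1, the best-known netrin, had 15.2, 23.5 and 72.2 CPM in hypoxia as lowest, median and highest, against 4.83, 38.8 and 112 in normoxia. It was lower in hypoxia in 5 of 6 numbers, the exception being number 21 with 6 reads in hypoxia and 1 read in normoxia. The estimate without the block was -0.68 ± 0.485 on the log2 scale (95% interval -1.69 to 0.32). With the block it was -0.62 ± 0.279 (edgeR adjusted p = 0.682). Single libraries moved the unblocked value, to -0.29 without normoxia 4 and -1.06 without hypoxia 33. NTN4, a netrin of basement membranes, averaged 43.7 ± 16.5 CPM in hypoxia and 49.6 ± 18.8 CPM in normoxia. The fitted log2 fold change was -0.11 ± 0.302.

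UNC5 receptors carry the repelling signal of netrins, and 3 of the 4 were tested. UNC5B, UNC5C and UNC5D had log2 fold changes of 0.15 ± 0.363, -0.080 ± 0.221 and 0.0055 ± 0.339. UNC5C, the most-read of them, had 146, 239 and 336 CPM in hypoxia as lowest, median and highest, against 182, 248 and 341 in normoxia. Every hypoxia value except the lowest lay within the normoxia range.

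**Figure D2:**
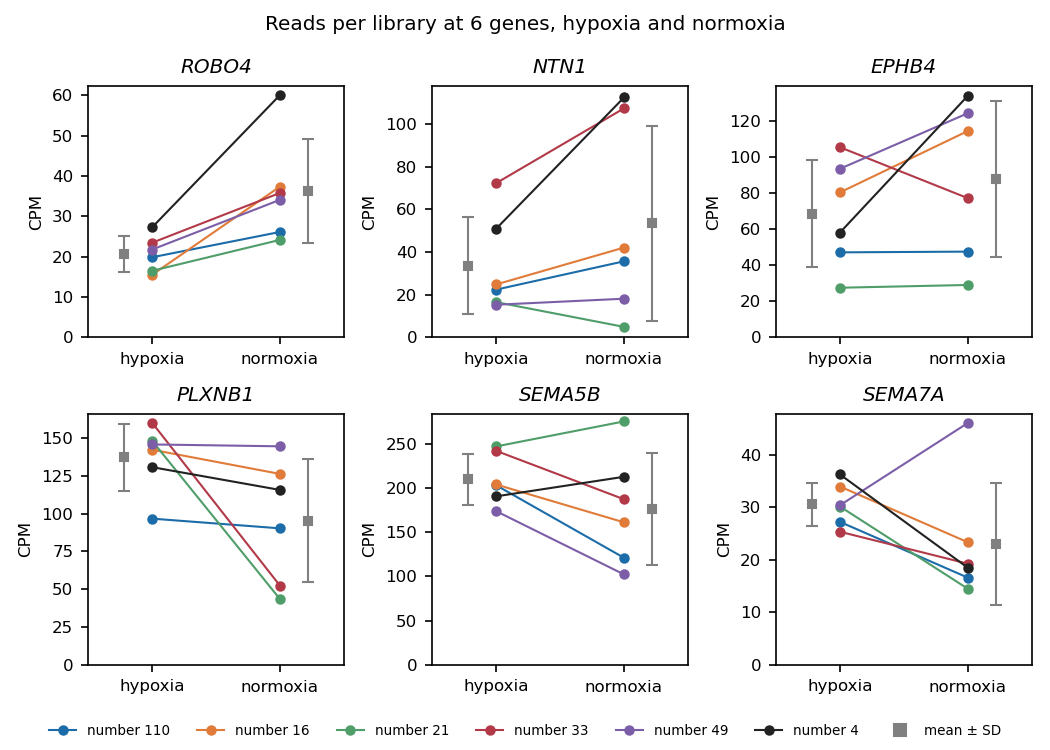
CPM per library (y axis, from 0) in hypoxia and normoxia (x axis) for ROBO4, NTN1, EPHB4, PLXNB1, SEMA5B and SEMA7A, with a line joining the libraries of each title number and grey squares giving the mean ± SD (n = 6 each). ROBO4 was lower and PLXNB1 higher in hypoxia in 6 of 6 numbers, and in all 6 panels the values of the groups overlapped.

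The 16 genes that did not reach the filter had 11 to 148 reads in all. They were EFNA1, EFNA2, EFNA3, EFNA4, EFNB1, EFNB2, EPHA7, EPHA8, NTN3, PLXNA3, PLXNB2, PLXNB3, SEMA3F, SEMA3G, SEMA4B and UNC5A. EFNA1, EFNA3 and EFNA4, which lie side by side in the RefSeq annotation, had 41, 83 and 11 reads over the 12 libraries. EPHA8 averaged 13.1 ± 4.97 CPM in hypoxia and 6.18 ± 6.44 CPM in normoxia and was higher in hypoxia in 5 of 6 numbers, on 0 to 12 reads per library. Without the filter, and in DESeq2, these genes were run with the rest, and 0 of the 66 passed the adjusted test.

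The co-receptors, further cues and intracellular effectors of the same pathways were taken as a list of 95 genes, 78 of which were tested. In hypoxia 35 were higher and 43 lower, beside 56.6% of all genes lower, with a median log2 fold change of -0.036, and 0 passed the adjusted edgeR test in either fit. At an unadjusted p under 0.05 there were 2 without the block, where 2.73% of all genes were, and 5 with it, where 7.09% were. Co-receptors split into 5 higher and 5 lower: NRP1 and NRP2, the neuropilins, had -0.20 ± 0.254 and 0.14 ± 0.192, and the netrin receptors DCC and NEO1 had 0.13 ± 0.269 and 0.19 ± 0.230. Effectors split into 26 higher and 30 lower. The lowest p values among them belonged to NFATC4, a calcineurin-regulated transcription factor, at -0.55 ± 0.253 and to the kinase gene GSK3B at -0.49 ± 0.228. NFATC4, ROCK1 and the cue gene RGMA were lower in 6 of 6 numbers, as 2.59% of all genes were. RHOA, the small GTPase downstream of plexins and Ephs, had 40.4 ± 13.1 CPM in hypoxia and 64.1 ± 26.9 CPM in normoxia. Its log2 fold change was -0.61 ± 0.308, or -0.58 ± 0.263 with the block. KALRN was higher in hypoxia in 6 of 6 numbers at 0.32 ± 0.233, as 1.68% of all genes were. CRMP1, a mediator of semaphorin signals, had 0.47 ± 0.326, and the adaptor gene NCK2 had 0.35 ± 0.275.

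At some of the genes the libraries differed by title number. A test of the title number term, added after the values were seen, called 6 of the 50 genes (12%) in edgeR's blocked fit at an adjusted p of 0.05, beside 12.8% of all genes tested. They were SEMA5A, NTN1, EPHA2, EPHB4, EFNA5 and EPHA4. The p-values of this term test all 6 numbers jointly. They do not compare the highest number with the lowest, which were picked afterwards. SEMA5A, a semaphorin with both attracting and repelling activity, had 325 CPM in hypoxia and 334 CPM in normoxia at number 4, and 71.7 CPM in hypoxia and 52.1 CPM in normoxia at number 49. These 2 numbers had the highest and lowest means, 5.32-fold apart (edgeR adjusted p = 1.13e-05 for the title number term). Across oxygen levels its log2 fold change was -0.049 ± 0.430 without the block and 0.045 ± 0.193 with it.

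NTN1 averaged 89.8 CPM at number 33 and 10.6 CPM at number 21, an 8.44-fold range (edgeR adjusted p = 0.000372 for the title number term). EPHA2 averaged 108 CPM at number 4 and 24.4 CPM at number 21 (edgeR adjusted p = 0.00384 for the title number term). At number 21 its values were 24.7 CPM in hypoxia and 24.1 CPM in normoxia. EPHB4 was also lowest at number 21, with 27.4 CPM in hypoxia and 29.0 CPM in normoxia, and highest at number 49, with 93.5 CPM in hypoxia and 124 CPM in normoxia. EFNA5 was highest at number 16, at 278 CPM in hypoxia and 285 CPM in normoxia, and averaged 114 CPM at number 33. At number 4 its libraries differed, with 250.4 CPM in hypoxia and 128 CPM in normoxia. EPHA4, an Eph receptor that binds ephrins of both classes, had its highest mean at number 110, with 131 CPM in hypoxia and 114 CPM in normoxia. Its normoxia values at numbers 16 and 21 were much the same, at 114 and 111 CPM (edgeR adjusted p = 0.0308 for the title number term).

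SEMA5A and NTN1 were called under every other scaling and filter run for this term, without each number and in lane 7 alone. EFNA5, EPHA2, EPHA4 and EPHB4 each lost the call in at least one of these, and the number of genes called ran from 4 to 8. The biological coefficient of variation over all genes was 0.305 without and 0.21 with the title number as a block. What the numbers mark is not stated, so a difference between animals cannot be told apart from one between cultures or preparations.

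**Figure D3:**
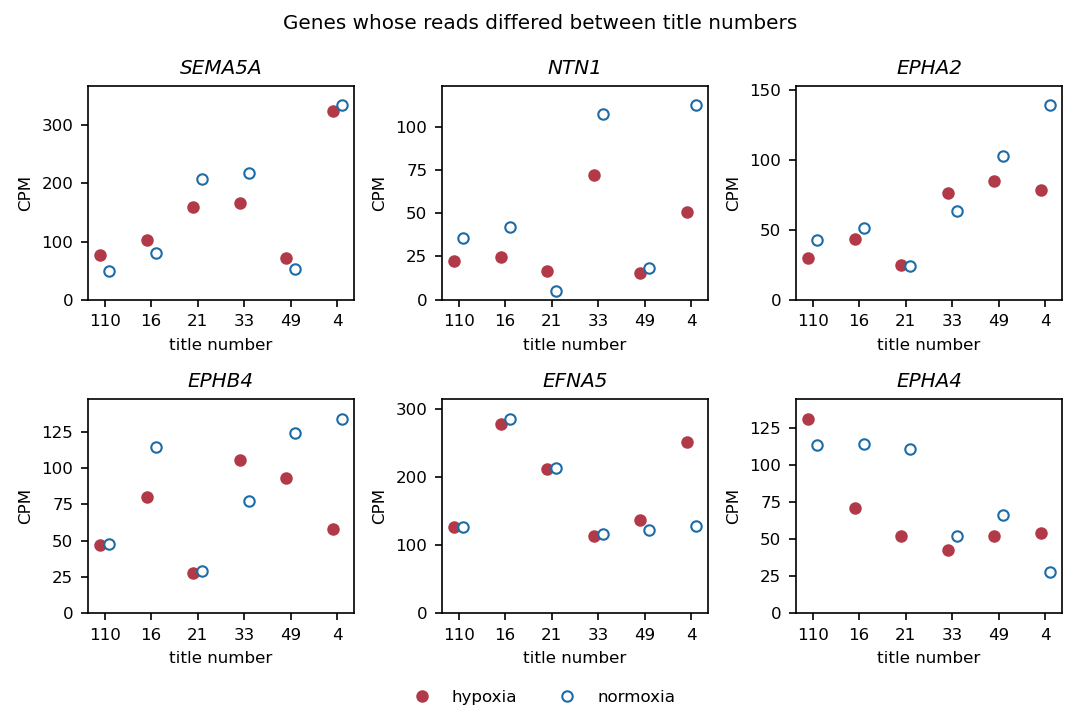
CPM (y axis, from 0) by title number (x axis) for SEMA5A, NTN1, EPHA2, EPHB4, EFNA5 and EPHA4, with filled circles for hypoxia and open circles for normoxia, 1 library each. The genes shown are those called by the title number term, so some closeness within a number follows from the choice. Libraries sharing a number lay close together for SEMA5A at number 4 (325 CPM in hypoxia and 334 CPM in normoxia). At the same number they lay apart for EFNA5 and for EPHB4 (58.1 CPM in hypoxia and 134 CPM in normoxia for EPHB4). EPHA4 at number 21 also differed, with 52.1 CPM in hypoxia and 111 CPM in normoxia.

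The spread between libraries was larger in normoxia at most of the genes. The coefficient of variation between libraries had a median of 29.6% over the 50 genes in hypoxia and 40.7% in normoxia, and it was larger in normoxia for 41 of the 50 (82%), beside 74.9% of all genes tested. Within normoxia, number 21 had the lowest value at 19 of the 50 genes and the highest at 12, and number 4 had the highest at 20. Without normoxia 21 the larger variation was in normoxia for 33 genes (61.3% of all genes), without normoxia 4 for 38 (73.3% of all genes), and without both normoxia 21 and 4 for 29 (58.1% of all genes). The depth of the libraries, lowest in normoxia 21 and highest in normoxia 4, moved with this spread, and its part was not tested.

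**Figure D4:**
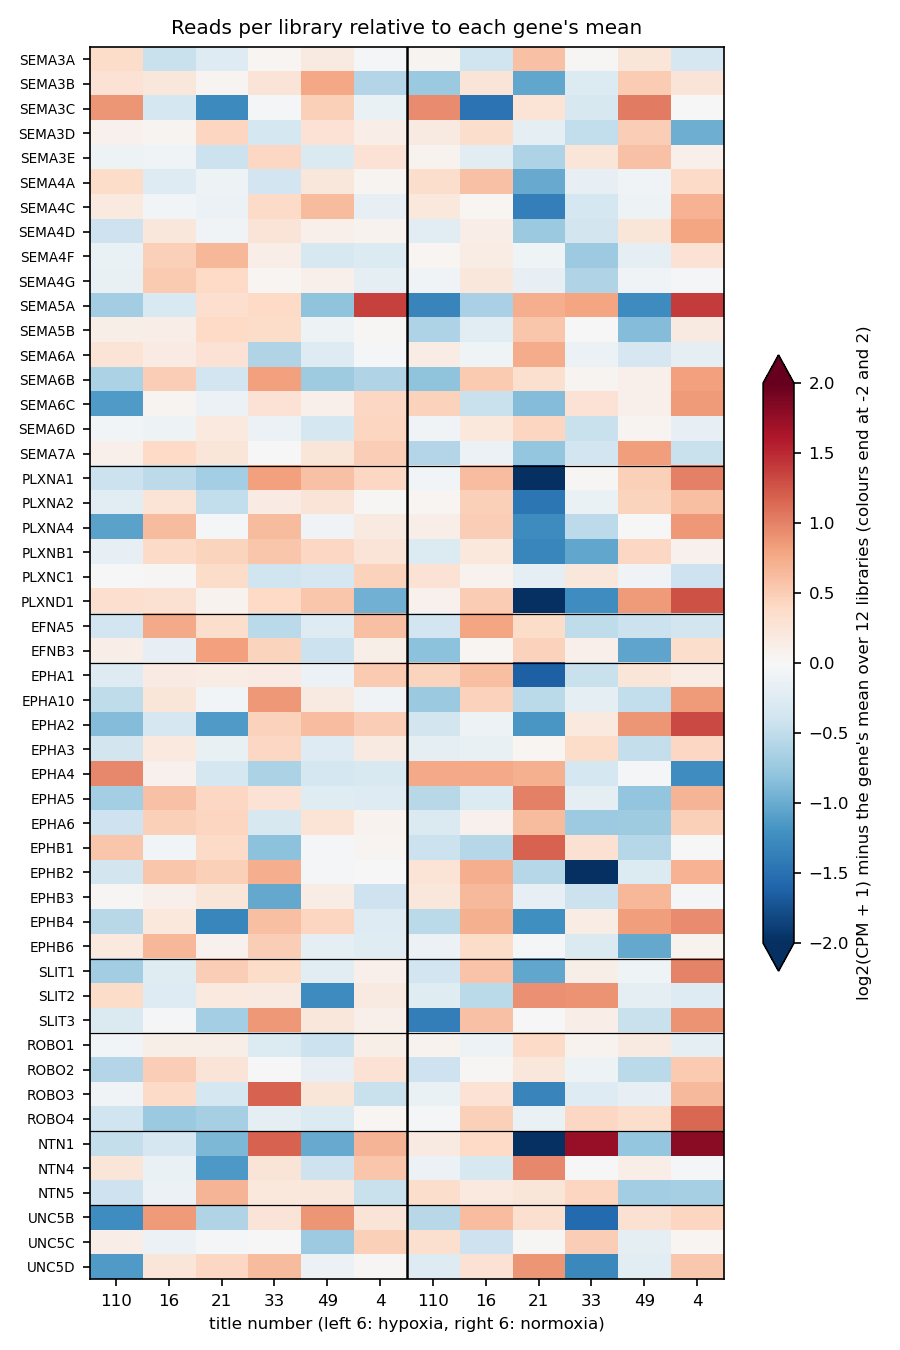
Colour shows log2(CPM + 1) minus the mean of the gene over the 12 libraries, for the 50 genes tested (rows, by family) in the 6 hypoxia libraries (left) and the 6 normoxia libraries (right), with the title number on the x axis. The normoxia 21 column holds the lowest normoxia value for 19 genes, several plexins among them, and the normoxia 4 column the highest for 20.

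Markers of cell types were read as 5hmC only. Reads were present at all 12 stromal markers, with a summed CPM of 1152 to 1752 in hypoxia and 1217 to 2409 in normoxia. That sum, in which markers with many reads weigh most, was lower in hypoxia in 6 of 6 numbers. Of the 11 markers tested 2 were higher and 9 lower, or 4 higher and 7 lower with the block, with 0 called in either fit. Of all genes tested 56.6% were lower, or 53.4% with the block. Smooth muscle and pericyte markers summed to 203 to 417 CPM in hypoxia and 149 to 475 CPM in normoxia, lower in hypoxia in 5 of 6 numbers. Among the 3 tested 1 was higher and 2 were lower, and 0 were called in either fit. ACTA2, smooth muscle actin, was lower in 6 of 6 numbers at -0.86 ± 0.543, as 2.59% of all genes were. With the block ACTA2 had -0.77 ± 0.221 (edgeR adjusted p = 0.354). MYH11 had -0.17 ± 0.242, or -0.15 ± 0.232 with the block. MCAM went the other way, at 0.38 ± 0.270, or 0.40 ± 0.209 with the block. The summed CPM of 9 endothelial markers, to which ROBO4 and EPHB4 are related by known expression, was 529 to 680 in hypoxia and 387 to 637 in normoxia, with CLDN5 at 0 reads in all 12 libraries. Of the 7 tested 5 were higher and 2 lower, from a log2 fold change of -0.071 for TIE1 to 0.40 for CDH5, with 0 called. The endothelial sum was higher in hypoxia in 3 of 6 numbers. Neuronal and glial markers summed to 399 to 543 CPM in hypoxia and 405 to 532 CPM in normoxia, with S100B at 0 reads. Their sum was higher in hypoxia in 3 of 6 numbers. Leukocyte markers summed to 553 to 681 CPM in hypoxia and 489 to 835 CPM in normoxia, higher in hypoxia in 4 of 6 numbers. Of the 6 tested 4 were higher and 2 lower, with 0 called. Epithelial markers summed to 100 to 167 CPM in hypoxia and 84.2 to 159 CPM in normoxia, higher in hypoxia in 4 of 6 numbers. As 5hmC reads at a gene are not its expression, these values do not show which cells were present, and fewer cells carrying the mark cannot be told apart from less of the mark per cell. The part of such differences in the values of the axon guidance genes was not tested.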

How the data were processed

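5hmC was measured by antibody capture of sonicated, denatured genomic DNA and sequencing, per the labels' protocols. The authors deposited raw HTSeq counts per gene symbol for each library. Tools named in the submitters' processing notes are Bowtie2, Picard, HTSeq, MACS2 and edgeR; the sources used here give no build, annotation, feature type or strand setting. Counting by exons rather than whole genes would leave out intronic signal. With 1.69 to 2.89% of reads in genes, the counts cannot be taken to cover whole gene bodies. Rows naming no gene (88.0 to 93.0% of reads outside features, 4.12 to 10.3% of low alignment quality) were left out of library sizes. Peak lists and an input sample in no group were not used here.

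Libraries were grouped by the treatment label. All gene rows were fitted in R 4.3.3 by edgeR 4.0.16 (two-sided quasi-likelihood test, TMM scaling, filterByExpr with min.count 10 and min.total.count 15), and p-values were adjusted by Benjamini-Hochberg over 11868 genes. Standard errors were the absolute log2 fold change divided by the square root of the F statistic. CPM were computed here from the counts. Alternatives were the title number as a block, other scalings, other filters, DESeq2 1.42.0, left-out libraries and lanes 7 and 8. The fit was run on simulated data in which all genes shared the same dispersion, so that run does not give the sensitivity of the tests here.

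Title numbers were taken to pair the libraries, by a limit of 0.1 on the correlation of deviations from group means over genes. Within numbers it was 0.136 (number 4) to 0.478. Correlations between different numbers were not computed, and libraries sharing a number also shared a sequencing lane. Nothing says the libraries of a group came from separate animals, so the p-values reflect only the variation among these libraries, part of which can be technical. Gene reads per library (263578 to 714002) set the counting error behind each value.

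Gene names matched RefSeq symbols of Sscrofa11.1 for all 66 genes and 26838 of 27339 rows. The genes, lists and rules were chosen with earlier results of these data known. Named genes were the 5 per direction with the smallest p in each fit, the most-read gene of each family, genes moving one way in 6 of 6 numbers, and the 3 pathway genes per direction with the smallest p. Others with values were added after their values were seen, to complete a family or pathway.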

Additional observations from a re-analysis of the deposited data

Results flagged for a closer look

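Within groups of 6 libraries, a library was singled out where its gap to the nearest other exceeded 0.625 of the group's range (Dixon's 95% value). Of 52 groups examined, 6 held such a library (11.5%), beside 8.88% of the groups of all genes tested. The 52 groups do not cover all of the 50 axon guidance genes tested, so the shares are not from like sets. SEMA5A and EPHA4, flagged below, had also been called by the title number term. Chance flags about 1 in 20 groups of normally spread values, and these groups share the same 12 libraries. EPHA4 had 131 CPM in hypoxia 110, with 42.9 to 71.1 CPM in the other hypoxia libraries. The normoxia library of that number, at 114 CPM, did not stand apart, as normoxia 16 and 21 had 114 and 111 CPM. SEMA5A had 325 CPM in hypoxia 4, with 71.7 to 166 CPM in the others. Normoxia 4, at 334 CPM, was also the highest of its group for this gene. NTN4 had 86.9 CPM in normoxia 21, with 35.0 to 48.1 CPM in the other normoxia libraries. SEMA6A had 333 CPM in normoxia 21, with 156 to 218 CPM in the others. SEMA7A had 46.1 CPM in normoxia 49, with 14.5 to 23.4 CPM in the others. ROBO4 had 60.1 CPM in normoxia 4, with 24.1 to 37.4 CPM in the others, and hypoxia 4, at 27.2 CPM, was the highest of its group; its log2 fold change without normoxia 4 was -0.59.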

How the results depend on the processing

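No axon guidance gene passed the adjusted test in any setting run: with the replicate block, other scalings, no filter or a stricter one, DESeq2, lane 7 or lane 8 alone, and without any library or number. ROBO4 kept its sign wherever it was tested; it had no value in lane 7 alone or among genes above the median CPM. At an unadjusted p under 0.05 there were 1 gene without and 3 with the replicate block, 0 among genes above the median CPM, 0 to 3 without single libraries, 2 in lane 8, and 3 (gene-read total) and 2 (table reads) with other scalings and the block; the blocked count reached 5 without number 4. The share lower in hypoxia was 54% (40 to 58% without single libraries) and 50% with the block. The block changed no other call.

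Small values changed sign. SLIT3 was 0.030 with the block, 0.011 with gene-read scaling (0.077 with the block), 0.029 with table reads and the block, and 0.13 in lane 7 (0.16 with the block). SEMA6A was 0.0090 with gene-read scaling (0.0082 with the block) and 0.15 in lane 8. EPHA1 was -0.011 with table reads. In lane 7 EFNA5 was -0.016 (-0.0056 with the block) and PLXNC1 -0.091 (-0.11 with the block). In lane 8 NTN4 was 0.16, UNC5C 0.11 and NCK2 -0.016. Without single libraries SLIT3 ran from -0.25 to 0.23, NTN4 from -0.27 to 0.071, PLXNC1 from -0.054 to 0.13, EPHA1 from -0.12 to 0.20, SEMA6A from -0.12 to 0.11 and UNC5C from -0.20 to 0.038. In the blocked fit SLIT3 was -0.098, -0.14 and -0.11 without numbers 110, 33 and 49, EPHA1 -0.093 and NTN4 0.20 without number 21, PLXNC1 -0.058 and -0.15 without numbers 21 and 4, and SEMA6A 0.044 and 0.030 without numbers 21 and 33. The cause was not tested.

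The title number term lost EPHA4 without normoxia 4 and under 6 other settings, EFNA5 under 3, EPHB4 without number 21 and EPHA2 in lane 7. Levels per kb of coding length were planned and not run. The 95% intervals printed or drawn come from the fit without the block, and changes within them were not resolved by these libraries in that fit. The part of read depth in the width of the intervals was not tested.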
